A study of Bos taurus with 12 samples.

Results

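The transcripts of 7 genes were followed in bovine embryonic stem cells: the receptor chains IFNAR1, IFNAR2, IFNGR1 and IFNGR2 and the receptor-bound kinases JAK1, JAK2 and TYK2. The 7 were picked by name, with results of these libraries already known, and all 7 were found among the 19285 entries of the count table by their Entrez identifiers. Their levels and fold changes are therefore a description and not an independent test.

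The 12 poly-A RNA libraries, all of the wild-type line F7, fall into the groups 1/7MC+Pyr+FGF, 1/7MC+Pyr, 1/7MC and MC, with 3 libraries each. The series title speaks of low-density feeder layers, pyruvate and a recombinant human basic fibroblast growth factor (FGF). MC cells carry the treatment label NC, and neither the meaning of MC, nor the amounts of pyruvate and FGF, nor the species of the feeder cells is labelled. All libraries come from 1 line, and nothing says that replicates were separate cultures, so all errors and p-values cover the spread among these libraries alone, which may be technical.

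Interferons signal through pairs of receptor chains. IFNAR1 and IFNAR2 bind the type I interferons, which include the antiviral alpha and beta forms and, in ruminants, interferon tau, the pregnancy signal of the early embryo. IFNGR1 and IFNGR2 bind interferon gamma. TYK2 is held by IFNAR1 and JAK1 by IFNAR2, while JAK1 is held by IFNGR1 and JAK2 by IFNGR2, and the kinases phosphorylate the STAT transcription factors. These receptor assignments are known mainly from human and mouse cells.

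Libraries held 27373759 to 44440972 counts. Levels are given as CPM (counts scaled to library size), computed here with trimmed-mean factors, with the mean and SD of 3 libraries. A pair of MC libraries, replicates 2 and 3, was counted differently from the rest. Where several entries carried the same Ensembl identifier (128 identifiers), their counts differed for 80 to 86 identifiers in 10 libraries but for 0 in this pair. Where they carried the same Entrez identifier (61 identifiers), counts differed for 53 in this pair but for 0 in each of the other 10. Comparisons with MC are therefore also given against MC replicate 1 alone, a library that then has no replicate and is assumed to vary like the other groups. MC replicates 2 and 3 also differed least of all same-group pairs, with a mean chi-square per gene of 3.36, against 9.42 to 112.45 in the others.

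**Figure D1:**
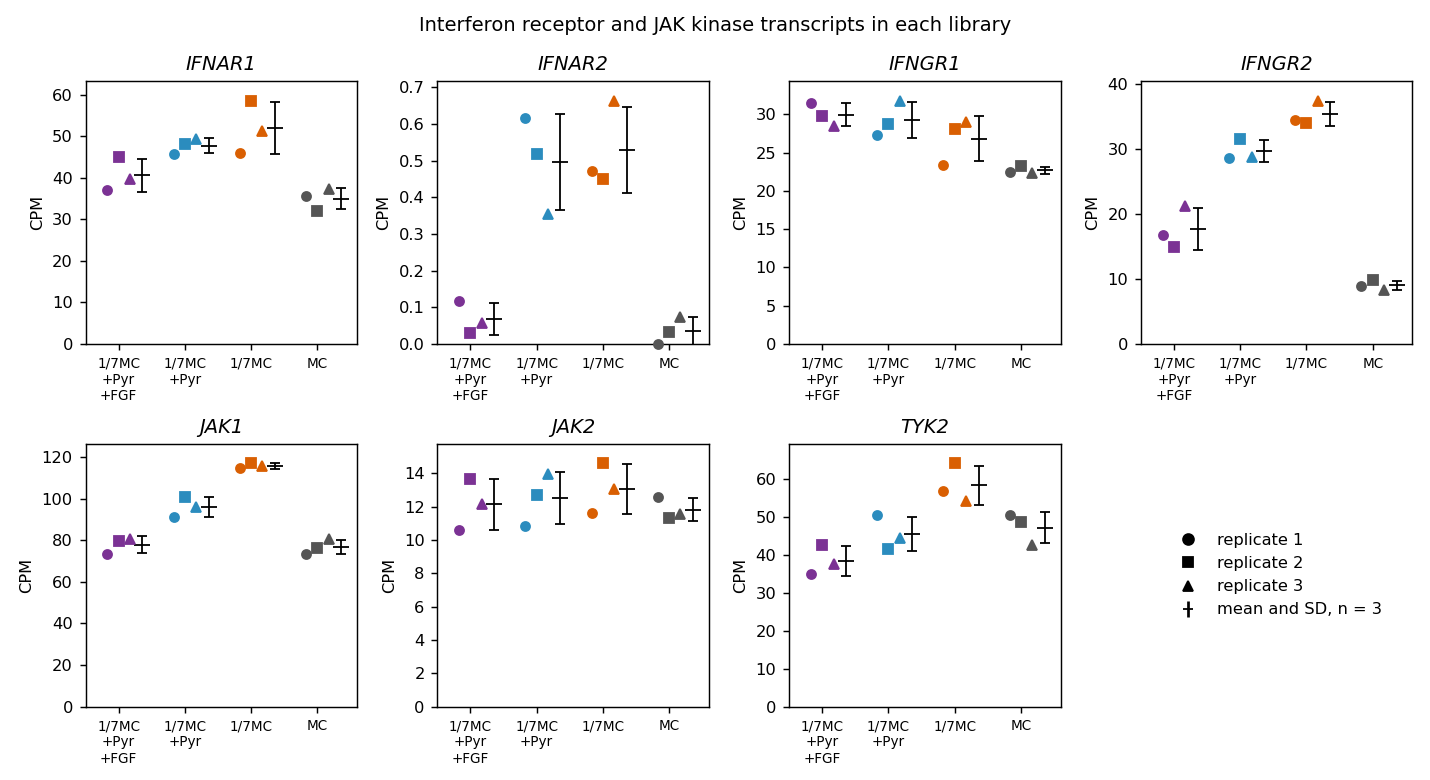
CPM (y axis, from 0) of each of the 7 genes in 12 libraries, by group (x axis). Symbols are replicates and the black bar is the mean with its SD (n = 3). IFNGR2 and JAK1 are lower in 1/7MC+Pyr+FGF than in 1/7MC+Pyr and lower there than in 1/7MC, IFNAR2 is near 0 in 1/7MC+Pyr+FGF and MC, and JAK2 is level.

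Among the receptor chains, IFNGR2 (ENSBTAG00000012899), the signalling chain of the interferon gamma receptor, had the largest fold difference between groups of the 6 genes above 1 CPM. It had 16.8, 14.9 and 21.2 CPM in the 1/7MC+Pyr+FGF libraries, 28.6, 31.7 and 28.8 CPM in 1/7MC+Pyr, 34.5, 34.1 and 37.5 CPM in 1/7MC, and 8.91, 9.80 and 8.31 CPM in MC. The 4 groups did not overlap, and every library of the 3 other groups lay above every MC library. IFNGR2 averaged 35.4 ± 1.85 CPM in 1/7MC and 9.01 ± 0.748 CPM in MC, a 3.93-fold difference (log2 1.97 ± 0.13, SE). It averaged 29.7 ± 1.70 CPM in 1/7MC+Pyr, which is a log2 difference of -0.25 ± 0.13 from 1/7MC. It averaged 17.7 ± 3.23 CPM in 1/7MC+Pyr+FGF, a log2 difference of -0.75 ± 0.13 from 1/7MC+Pyr, and 0.499 times the level of 1/7MC by the fitted fold. The level in 1/7MC+Pyr+FGF was thus still above that of MC, by 0.97 ± 0.13. Against MC replicate 1 alone the log2 difference was 2.00 ± 0.21 in 1/7MC and 0.97 ± 0.20 in 1/7MC+Pyr+FGF.

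IFNGR1 (ENSBTAG00000012544), the chain that binds interferon gamma, stayed within a narrow range. It had 31.6, 29.8 and 28.5 CPM in 1/7MC+Pyr+FGF, 27.3, 28.7 and 31.8 CPM in 1/7MC+Pyr, 23.5, 28.1 and 29.1 CPM in 1/7MC, and 22.4, 23.3 and 22.4 CPM in MC. The MC libraries were the lowest and the other 3 groups overlapped each other. The log2 difference from MC was 0.40 ± 0.10 in 1/7MC+Pyr+FGF, 0.37 ± 0.10 in 1/7MC+Pyr and 0.24 ± 0.10 in 1/7MC (SE). Against MC replicate 1 alone these differences were 0.40, 0.40 and 0.27.

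The balance of the 2 interferon gamma receptor chains changed with IFNGR2. To compare genes with each other, the deposited length-scaled signal was used (count over gene length, rescaled here to the same sum in each library). By that signal IFNGR2 stood at 0.947 ± 0.211 times IFNGR1 in 1/7MC+Pyr+FGF, at 1.63 ± 0.163 times in 1/7MC+Pyr, at 2.12 ± 0.212 times in 1/7MC and at 0.634 ± 0.0397 times in MC (SD, n = 3 each). Single libraries gave ratios of 0.850, 0.801 and 1.19 in 1/7MC+Pyr+FGF, so 1 of the 3 had more IFNGR2 than IFNGR1. The ratio was 1.68, 1.76 and 1.45 in 1/7MC+Pyr, 2.36, 1.94 and 2.06 in 1/7MC, and 0.635, 0.673 and 0.594 in MC. IFNGR2 was thus the more abundant transcript in every 1/7MC and 1/7MC+Pyr library and the less abundant in every MC library.

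IFNAR1 (ENSBTAG00000021819), the chain that carries TYK2, had 37.2, 44.9 and 39.8 CPM in 1/7MC+Pyr+FGF, 45.8, 48.2 and 49.4 CPM in 1/7MC+Pyr, 46.1, 58.7 and 51.3 CPM in 1/7MC, and 35.7, 32.1 and 37.3 CPM in MC. The 1/7MC and 1/7MC+Pyr libraries overlapped and lay above those of both other groups, which overlapped. The log2 difference of 1/7MC from MC was 0.57 ± 0.11 (SE), a 1.49-fold difference, and it was 0.56 ± 0.17 against MC replicate 1 alone. Pyruvate-treated cells differed from 1/7MC by -0.12 ± 0.11, and the cells given pyruvate and FGF differed from 1/7MC by -0.36 ± 0.11.

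IFNAR2 (ENSBTAG00000015212), the chain that binds type I interferon with high affinity, was close to the limit of detection in all libraries. Its raw counts were 5, 1 and 2 in 1/7MC+Pyr+FGF, 18, 18 and 10 in 1/7MC+Pyr, 14, 17 and 23 in 1/7MC, and 0, 1 and 2 in MC. The 1/7MC+Pyr and 1/7MC libraries had at least 10 counts each, and the other 6 libraries had at most 5. It passed the low-count filter only through those 2 higher groups. Summed over replicates, IFNAR2 reached 0.0721 CPM in 1/7MC+Pyr+FGF (exact Poisson interval 0.0311 to 0.142), 0.499 CPM in 1/7MC+Pyr (0.366 to 0.666), 0.530 CPM in 1/7MC (0.398 to 0.691) and 0.0319 CPM in MC (0.00658 to 0.0933).

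These intervals have a level of 95% and cover counting error only. The ratio of 1/7MC to MC was 16.6 with a counting interval of 5.38 to 82.9, and that of 1/7MC+Pyr to 1/7MC was 0.943 (0.622 to 1.42). The ratio of 1/7MC+Pyr+FGF to 1/7MC+Pyr was 0.144 (0.0588 to 0.309), and to 1/7MC it was 0.136 (0.0559 to 0.288). MC replicate 1 had no IFNAR2 count, which allows up to 0.103 CPM by the same exact Poisson interval. By length-scaled signal, IFNAR2 amounted to 0.217% ± 0.157 of IFNAR1 in 1/7MC+Pyr+FGF, 1.30% ± 0.391 in 1/7MC+Pyr, 1.27% ± 0.325 in 1/7MC and 0.123% ± 0.123 in MC (SD, n = 3 each). One chain of the type I receptor was thus far more abundant as RNA than the other in all 4 groups, in the gene models used for these counts.

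**Figure D2:**
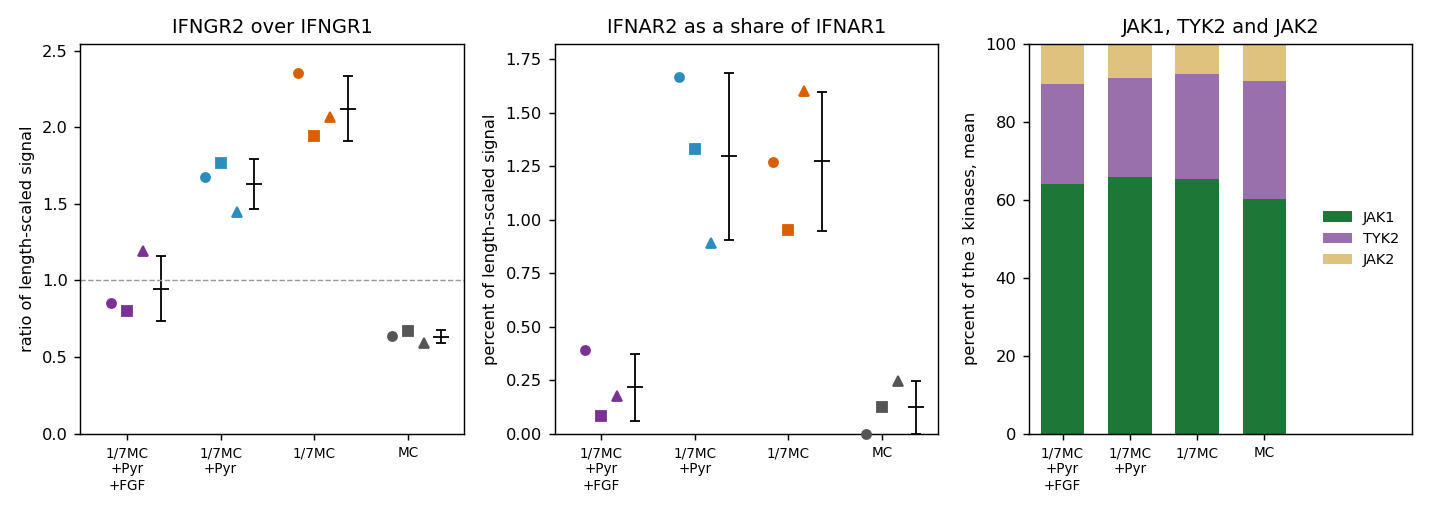
Left, ratio of IFNGR2 to IFNGR1 (dashed line at 1), and middle, IFNAR2 as a percentage of IFNAR1, in each library (circle, square and triangle for replicates 1, 2 and 3; bar, mean and SD, n = 3). Right, mean share of JAK1, TYK2 and JAK2 in their sum, in percent. All are length-scaled signal; the receptor ratios differ several-fold between groups, while JAK1 holds 60.3% to 65.8% throughout.

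JAK1 (ENSBTAG00000003147), the kinase shared by both interferon receptors and by many cytokine receptors, showed 3 separate levels. It had 73.5, 79.7 and 80.8 CPM in 1/7MC+Pyr+FGF, 91.2, 101.0 and 96.2 CPM in 1/7MC+Pyr, 114.6, 117.1 and 115.6 CPM in 1/7MC, and 73.6, 76.5 and 80.6 CPM in MC. The 1/7MC libraries were the highest, the 1/7MC+Pyr libraries lay between, and the 1/7MC+Pyr+FGF and MC libraries overlapped. The log2 difference was 0.59 ± 0.08 for 1/7MC against MC, -0.27 ± 0.08 for 1/7MC+Pyr against 1/7MC, -0.30 ± 0.08 for 1/7MC+Pyr+FGF against 1/7MC+Pyr and 0.02 ± 0.08 for 1/7MC+Pyr+FGF against MC (SE). Against MC replicate 1 alone it was 0.66 for 1/7MC and 0.07 for 1/7MC+Pyr+FGF.

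TYK2 (ENSBTAG00000011698), the kinase of the type I receptor, had 34.8, 42.6 and 37.6 CPM in 1/7MC+Pyr+FGF, 50.4, 41.5 and 44.4 CPM in 1/7MC+Pyr, 56.7, 64.1 and 54.3 CPM in 1/7MC, and 50.4, 48.5 and 42.6 CPM in MC. The 1/7MC libraries lay above all others, and the other groups overlapped their neighbours. The log2 difference of 1/7MC+Pyr+FGF from 1/7MC was -0.61 ± 0.11, and that of 1/7MC from MC was 0.31 ± 0.11 (SE). Unlike JAK1, TYK2 had a mean in 1/7MC+Pyr+FGF below that in MC, by a log2 difference of -0.30 ± 0.11. Against MC replicate 1 alone the TYK2 difference was -0.41 in 1/7MC+Pyr+FGF and 0.22 in 1/7MC. The difference between JAK1 and TYK2 was not tested.

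JAK2 (ENSBTAG00000012047), the kinase of the interferon gamma receptor and of the growth hormone and erythropoietin receptors, was the lowest of the 3 kinases. It had 10.6, 13.6 and 12.2 CPM in 1/7MC+Pyr+FGF, 10.9, 12.7 and 14.0 CPM in 1/7MC+Pyr, 11.6, 14.6 and 13.1 CPM in 1/7MC, and 12.6, 11.3 and 11.5 CPM in MC. All 4 groups overlapped, and the log2 differences ran from -0.11 ± 0.14 to 0.15 ± 0.14 over the 6 comparisons. Against MC replicate 1 alone they were -0.07 in 1/7MC+Pyr+FGF, 0.003 in 1/7MC+Pyr and 0.07 in 1/7MC. By length-scaled signal JAK1 made up 64.1% of the 3 kinases in 1/7MC+Pyr+FGF, 65.8% in 1/7MC+Pyr, 65.5% in 1/7MC and 60.3% in MC. TYK2 made up 25.5% to 30.2% by group, with the highest mean in MC, and JAK2 7.57% to 10.2%.

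The order of the 7 genes by length-scaled signal, a level per gene length, differed between MC and 1/7MC. In 1/7MC, JAK1 stood at 43.7 ± 2.45, followed by IFNGR2 at 35.0 ± 2.08 and IFNAR1 at 32.6 ± 5.46, a pair within its spread. TYK2 at 18.1 ± 2.33 and IFNGR1 at 16.6 ± 2.39 came next, again within their spread, and then JAK2 at 5.08 ± 0.814 and IFNAR2 at 0.409 ± 0.0884. In MC, JAK1 at 27.3 ± 0.689 and IFNAR1 at 20.6 ± 1.99 led, then TYK2 at 13.8 ± 1.89 and IFNGR1 at 13.2 ± 0.731, which overlapped, then IFNGR2 at 8.38 ± 0.847, JAK2 at 4.32 ± 0.503 and IFNAR2 at 0.0248 ± 0.0259 (SD, n = 3 each). IFNGR2 thus shared the places after JAK1 with IFNAR1 in 1/7MC, and came after JAK1, IFNAR1, TYK2 and IFNGR1 in MC.

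**Figure D3:**
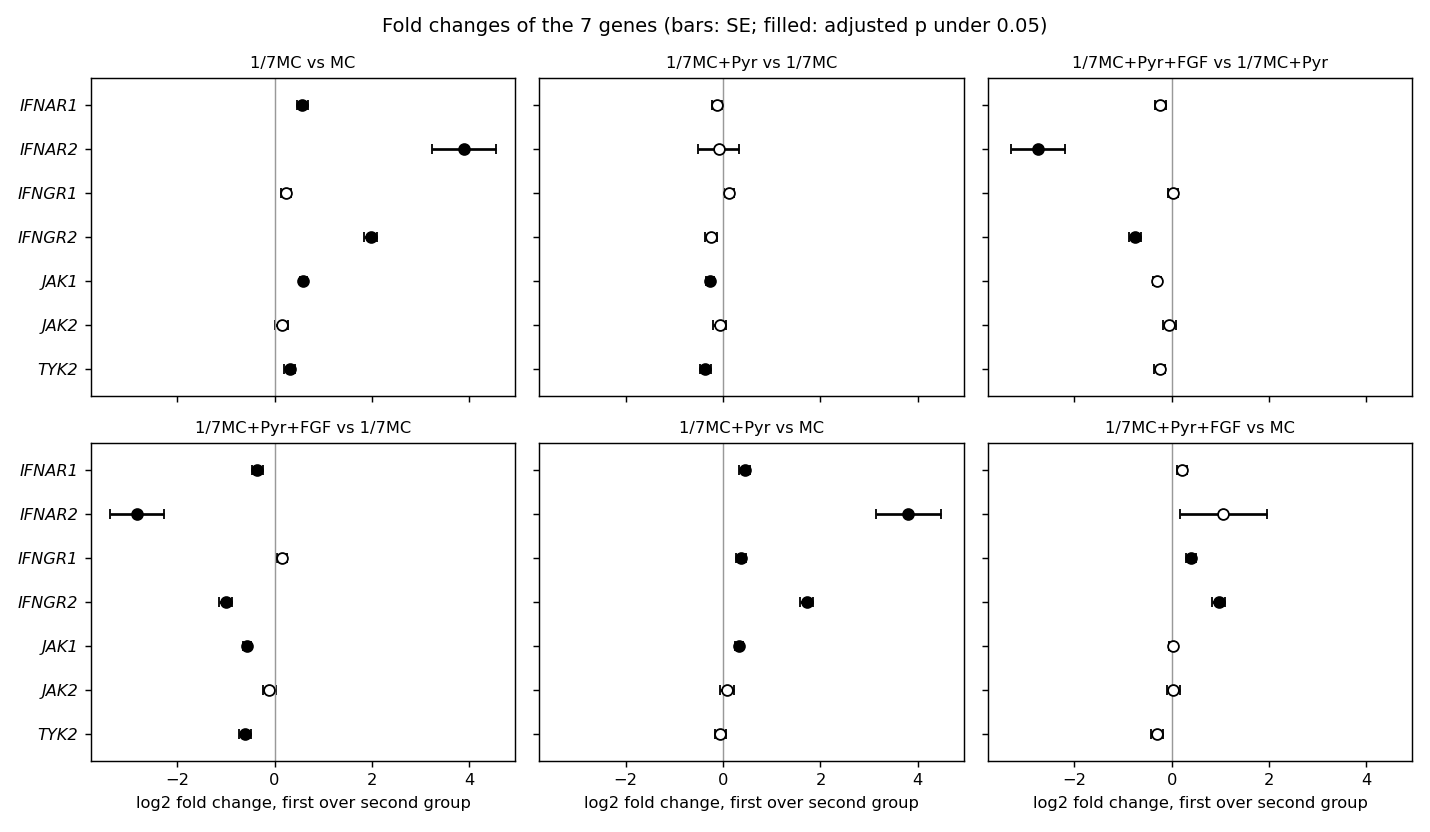
Log2 fold change (x axis) of each gene (y axis), first over second group, in the 6 comparisons of the 12-library fit. Bars are SE and filled points have an adjusted p under 0.05. IFNAR2 and then IFNGR2 lie farthest from 0 in 5 of the 6 panels, TYK2 and then JAK1 do so in 1/7MC+Pyr against 1/7MC, and JAK2 stays between -0.11 and 0.15.

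Calls of the 12-library fit (edgeR's quasi-likelihood test, adjusted p under 0.05 over 13920 genes) are set here beside the share of all genes called, and since the genes were picked with these contrasts known, nothing is read from them. For 1/7MC against MC, 5 of the 7 genes were called higher and 0 lower, where 23.7% of all genes were called higher and 21.3% lower. The 5 were IFNAR1, IFNAR2, IFNGR2, JAK1 and TYK2. Their median log2 fold change over all 7 was 0.57, against 0.00 over all genes. Against MC replicate 1 alone, 4 were called higher, without TYK2, beside 14% of all genes higher and 9.96% lower. The TYK2 call of the 12-library fit also ended without any 1 of the 1/7MC replicates 1, 2 and 3, MC replicates 2 and 3, 1/7MC+Pyr replicates 2 and 3, or 1/7MC+Pyr+FGF replicate 3, with adjusted p up to 0.180.

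JAK1 and TYK2 were called lower in 1/7MC+Pyr against 1/7MC, and 0 of the 7 higher, beside 10.1% of all genes lower and 8.08% higher; their median was -0.12, against -0.01 over all genes. The JAK1 call ended without 1/7MC+Pyr replicate 1 or 3, 1/7MC replicate 1, 2 or 3, or MC replicate 2, with adjusted p up to 0.0958. That of TYK2 ended without 1/7MC+Pyr replicate 2 or 3, 1/7MC replicate 1, 2 or 3, MC replicate 2 or 3, or 1/7MC+Pyr+FGF replicate 3, with adjusted p up to 0.143. At an unadjusted p under 0.05 and by DESeq2 the count of genes called higher was 0 as well.

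IFNGR2 and IFNAR2 were called lower in 1/7MC+Pyr+FGF against 1/7MC+Pyr, beside 2.12% of all genes lower and 0.639% higher; the median was -0.24, against 0.01 over all genes. The IFNAR2 call ended without any 1 of the 1/7MC+Pyr+FGF libraries or without 1/7MC+Pyr replicate 1 or 3, with adjusted p up to 0.103, while IFNGR2 kept its call without each of the 12 libraries in turn. Against 1/7MC, the 1/7MC+Pyr+FGF libraries had 5 genes called lower, IFNGR2, IFNAR1, IFNAR2, JAK1 and TYK2, beside 15.7% of all genes lower and 11.9% higher. The median was -0.57, against 0.01 over all genes, and the IFNAR1 call ended without 1/7MC+Pyr+FGF replicate 1 or 3 or 1/7MC replicate 2 or 3, with adjusted p up to 0.133.

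Against MC, 5 of the 7 were called higher in 1/7MC+Pyr, namely IFNGR2, IFNAR1, IFNAR2, JAK1 and IFNGR1, beside 15.2% of all genes higher and 13.2% lower. Only IFNGR2 and IFNAR2 were called against MC replicate 1 alone, beside 6.56% higher and 3.15% lower; the count was 3 without MC replicate 2. The IFNGR1 call also ended without 1/7MC+Pyr replicate 3 or MC replicate 3. IFNGR2 and IFNGR1 were called higher in 1/7MC+Pyr+FGF against MC, beside 17.1% of all genes higher and 15.4% lower. Against MC replicate 1 alone IFNGR2 was called, beside 5.86% higher and 6.13% lower. Comparisons with a shared group share its libraries and are not independent of each other.

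IFNGR2, IFNAR1 and IFNAR2 are neighbours on 1 chromosome. In the gene order of the assembly ARS-UCD2.0, another build than the bosTau9 of the counts, IFNGR2, IFNAR1, IL10RB and IFNAR2 follow each other in that order as protein-coding genes, with long non-coding RNA genes between some of them. IL10RB, the second chain of the receptors for interleukin 10 and interferon lambda, averaged 18.6 CPM in 1/7MC+Pyr+FGF, 19.9 CPM in 1/7MC+Pyr, 21.3 CPM in 1/7MC and 16.7 CPM in MC. It rose in 1/7MC against MC by 0.35 ± 0.10 on the log2 scale (adjusted p = 0.0116, edgeR), but its adjusted p was 0.103 against MC replicate 1 alone. Neighbours of this run thus differed in size of change. Log2 differences of 1/7MC from MC were 1.97 for IFNGR2, 0.57 for IFNAR1, 0.35 for IL10RB and 3.89 ± 0.66 for IFNAR2. That of IFNAR2 rests on few counts, and the differences between genes were not tested. The kit and counting are not stated to use strand, so reads of overlapping antisense transcripts cannot be told apart from those of the receptors.

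Genes with the most similar profile were sought by the root mean square (RMS) difference of centred log2 CPM over the 10 libraries other than MC replicates 2 and 3. The search was limited to tested genes whose SD was at least the member's SD divided by 2, so more level genes were left out. For IFNGR2 these were FAM114A1 at an RMS difference of 0.101, FILIP1L at 0.127 and CTHRC1 at 0.144, where IFNGR2 itself had an SD of 0.668. For IFNAR2 they were OAS1Y at 0.325, IFI6 at 0.369 and SPON2 at 0.401, where IFNAR2 had an SD of 1.34. OAS1Y and IFI6 belong to the interferon-induced genes listed below. IFNAR2 had at most 23 counts a library and passed the low-count filter only through 1/7MC and 1/7MC+Pyr. Strongly varying genes with that group pattern therefore lie near it, and no link between the genes is read from the match. For JAK1 they were GRK4 at 0.0654, KIAA1191 at 0.0682 and OTULINL at 0.0786, and for IFNAR1 PARP4 at 0.0533, NBEA at 0.0647 and SLC25A46 at 0.0677.

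TYK2 was closest to TMEM164 at 0.0659, TP53I11 at 0.0690 and BCL2L2 at 0.0749. IFNGR1 was closest to ERP44 at 0.0753, ABHD13 at 0.0758 and TENT2 at 0.0761, and JAK2 to PBRM1 at 0.0634, XRN1 at 0.0644 and PPTC7 at 0.0683. IFNGR1 and JAK2 varied little, with an SD of 0.165 and 0.151, so a small RMS difference says little for them. Among the 7 genes themselves the closest pair was IFNAR1 with JAK1 at 0.124 and the farthest was IFNAR2 with JAK2 at 1.28, while the 2 chains of the gamma receptor were 0.613 apart and those of the type I receptor 1.12 apart. All points share library depth and sample groups.

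**Figure D4:**
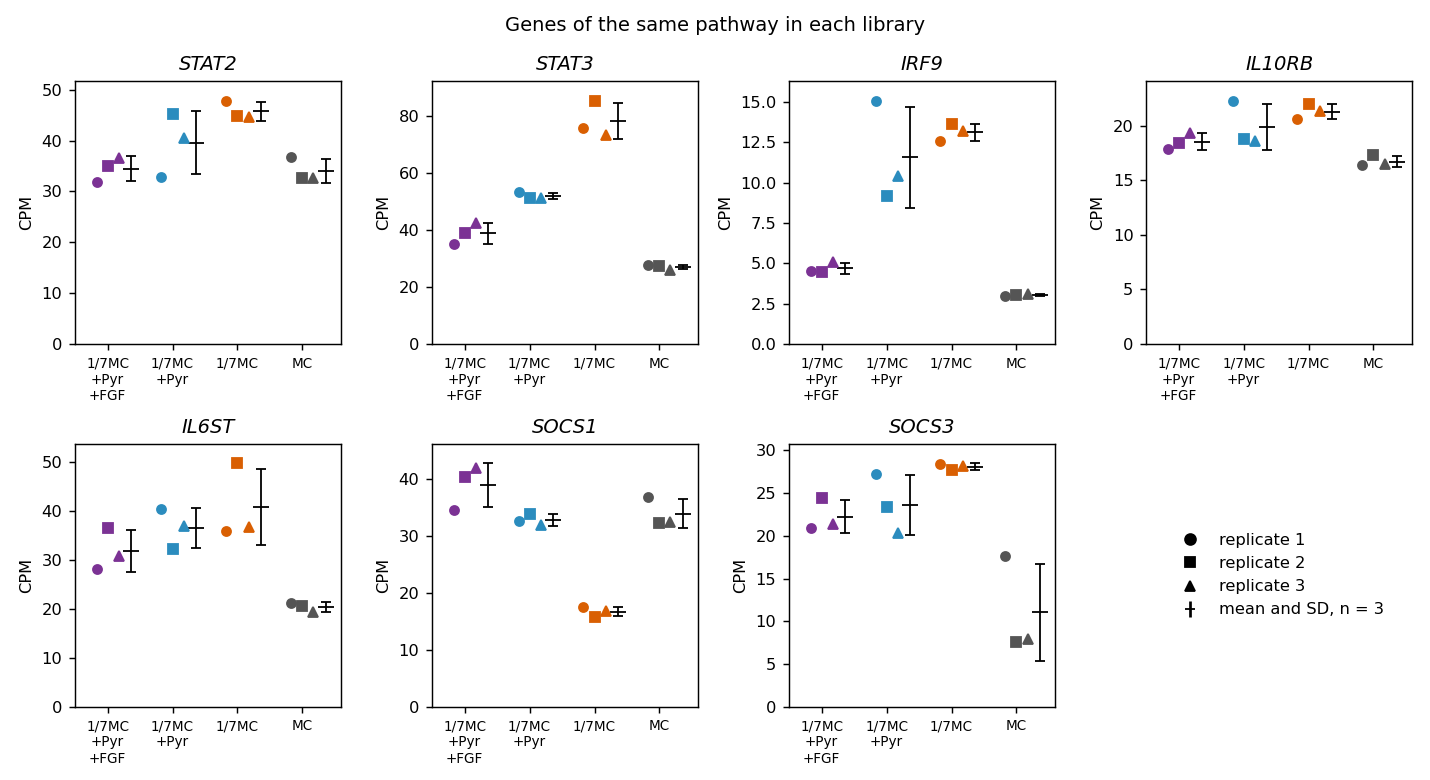
CPM (y axis, from 0) of 7 genes of the same pathway in the 12 libraries, by group (x axis), with symbols for replicates and the mean with SD (n = 3). STAT3 and IRF9 are lowest in MC, SOCS1 is lowest in 1/7MC, and SOCS3 differs between MC replicate 1 and MC replicates 2 and 3.

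Downstream of the kinases, the STAT transcription factors and IRF9, their partner in type I interferon signalling, were counted in a list of 8 genes, all tested. In 1/7MC against MC, 5 of the 8 rose and 0 fell, beside 23.7% of all genes higher and 21.3% lower. The median log2 fold change was 0.45, against 0.00 over all genes. At an unadjusted p under 0.05 the count of higher genes was 6, and DESeq2 called 5 higher and 0 lower. Against MC replicate 1 alone 3 rose, IRF9, STAT3 and STAT5A. STAT3, used by interleukin 6 and LIF, rose by 1.53 ± 0.10 and STAT5A, used by growth hormone and prolactin, by 1.18 ± 0.17 (SE). IRF9 rose by 2.12 ± 0.18, with 12.6, 13.6 and 13.2 CPM in 1/7MC and 2.94, 3.03 and 3.12 CPM in MC.

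With pyruvate and FGF, 4 of the 8 fell against 1/7MC and 0 rose (median -0.65), beside 15.7% of all genes lower and 11.9% higher. IRF9 fell by -1.49 ± 0.17, STAT5A by -1.03 ± 0.16, STAT3 by -1.01 ± 0.10 and STAT2 by -0.41 ± 0.12. The STAT2 call ended without 1/7MC+Pyr+FGF replicate 1 or any 1 of the 1/7MC libraries, with adjusted p up to 0.0768.

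Pyruvate alone was followed by 1 call in this list against 1/7MC, beside 10.1% of all genes lower and 8.08% higher. This was STAT3, which fell by -0.59 ± 0.09. Without 1/7MC+Pyr replicate 1, 2 genes fell. Addition of FGF to pyruvate (1/7MC+Pyr+FGF against 1/7MC+Pyr) was followed by 3 lower and 0 higher (median -0.31), beside 2.12% of all genes lower and 0.639% higher. IRF9 fell by -1.30 ± 0.17, STAT5A by -0.73 ± 0.16 and STAT3 by -0.42 ± 0.09. The count was 1 without 1/7MC+Pyr+FGF replicate 1 or 2, 1/7MC+Pyr replicate 1 or 3, or 1/7MC replicate 1 or 3. Against MC, 3 rose in 1/7MC+Pyr and 2 in 1/7MC+Pyr+FGF, and the count of 2 was 0 against MC replicate 1 alone, where 2 rose at an unadjusted p under 0.05. Without 1/7MC+Pyr replicate 1 the count of 3 was 5, and without 1/7MC+Pyr+FGF replicate 3 the count of 2 was 1. Of all genes, 15.2% were called higher in 1/7MC+Pyr and 17.1% in 1/7MC+Pyr+FGF, each against MC.

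Inhibitors of the pathway formed a list of 18 genes with SOCS proteins, PIAS proteins, phosphatases, SH2B3 and USP18, and they did not move as 1 group. Their counts for 1/7MC against MC stand beside 23.7% of all genes called higher and 21.3% lower. In 1/7MC against MC, 6 rose and 1 fell (median 0.18); without MC replicate 1 the counts were 11 and 3, without 1/7MC+Pyr+FGF replicate 2 they were 6 and 2, and against MC replicate 1 alone 4 rose and 2 fell. SOCS2, which restrains growth hormone signalling, rose by 1.88 ± 0.13, and USP18, which binds IFNAR2 and dampens type I signalling, also rose, to a mean of 4.36 CPM in 1/7MC, against 1.54 CPM in MC. SOCS1, which inhibits the JAK kinases directly, fell by -1.02 ± 0.10.

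SOCS1 had 34.6, 40.4 and 41.9 CPM in 1/7MC+Pyr+FGF, 32.7, 33.9 and 31.9 CPM in 1/7MC+Pyr, 17.5, 15.8 and 16.9 CPM in 1/7MC, and 36.9, 32.4 and 32.6 CPM in MC. The 1/7MC libraries lay below all others, the reverse of their rank for JAK1. SOCS1 rose by 0.97 ± 0.10 in 1/7MC+Pyr and by 1.22 ± 0.10 in 1/7MC+Pyr+FGF, each against 1/7MC. SOCS3 rose by 1.34 ± 0.26 in 1/7MC against MC, but by 0.68 against MC replicate 1 alone (adjusted p = 0.0149): it had 17.6 CPM in MC replicate 1 and 7.60 and 7.87 CPM in the other MC libraries.

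In 1/7MC+Pyr against 1/7MC, 1 inhibitor rose and 2 fell, beside 8.08% of all genes higher and 10.1% lower. The 2 were SOCS2, with 13.0 CPM in 1/7MC+Pyr and 26.1 CPM in 1/7MC, and CISH, which fell by -0.70 ± 0.14. Without 1/7MC+Pyr+FGF replicate 1, 2 rose. In 1/7MC+Pyr+FGF against 1/7MC, 2 rose and 5 fell, beside 11.9% of all genes higher and 15.7% lower. In that comparison 3 fell without 1/7MC+Pyr+FGF replicate 1 or 2 or any 1 of the 1/7MC libraries. USP18 fell by -1.47 ± 0.28 there. USP18 was also the 1 inhibitor called in 1/7MC+Pyr+FGF against 1/7MC+Pyr, at -1.65 ± 0.28 (adjusted p = 0.00992); that call ended without 1/7MC+Pyr+FGF replicate 1 (adjusted p = 0.0567).

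Of 29 other receptor chains that use these kinases, with JAK3, 27 had an entry and 20 were tested. In 1/7MC against MC, 4 rose and 5 fell (median -0.27); against MC replicate 1 alone, 2 rose and 3 fell of 21 tested. The counts of 4 and 5 of the 20 are near the shares of all genes called, 23.7% higher and 21.3% lower. JAK3, a kinase of lymphoid cytokine receptors, fell by -1.39 ± 0.18, and IL6R by -1.83 ± 0.26. IL6ST, the shared signalling chain of the interleukin 6 family, rose by 1.00 ± 0.15. In 1/7MC+Pyr+FGF against 1/7MC+Pyr, edgeR called 0 of the 20 and DESeq2 0, while 2 were lower at an unadjusted p under 0.05. Of all genes, edgeR called 2.12% lower and 0.639% higher there. Against 1/7MC, 5 of the 20 rose and 0 fell in 1/7MC+Pyr, beside 8.08% of all genes higher and 10.1% lower. There 2 were lower at an unadjusted p and 1 by DESeq2. Also against 1/7MC, 5 rose and 0 fell in 1/7MC+Pyr+FGF, beside 11.9% of all genes higher and 15.7% lower. In that comparison 2 were lower at an unadjusted p and 0 by DESeq2. The first count of higher genes was 2 or 3 without 1/7MC+Pyr replicate 3 or any 1 of the 1/7MC libraries, and the second was 3 without 1/7MC+Pyr+FGF replicate 1 or 2 or 1/7MC replicate 3. Counts of lower genes also moved: in 1/7MC+Pyr, 1 or 2 fell without 1/7MC+Pyr+FGF replicate 1 or 2, 1/7MC+Pyr replicate 1 or MC replicate 1, and in 1/7MC+Pyr+FGF 1 fell without its replicate 2 or without 1/7MC+Pyr replicate 1. JAK3 rose by 0.99 ± 0.18 in 1/7MC+Pyr and by 0.76 ± 0.18 in 1/7MC+Pyr+FGF, each against 1/7MC.

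The ligand genes with a kept entry were hardly detected. Of 10 interferon genes listed, 5 had an entry among those kept and none passed the low-count filter. IFNG, IFNL3 and IFNT2 had 0 counts in every library, IFNK averaged at most 0.0377 CPM in a group and IFNE at most 0.00945 CPM. The other ligand genes are not analysed here.

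Interferon-induced genes, which the activated STAT complexes turn on, were counted in a list of 29, of which 27 had an entry and 24 were tested. In 1/7MC against MC, 18 rose and 1 fell, with a median log2 fold change of 1.63 against 0.00 over all genes; 2 fell without 1/7MC+Pyr replicate 2, and against MC replicate 1 alone 15 of 27 tested rose and 1 fell. The share of all genes called in this comparison was 23.7% higher and 21.3% lower. IFI44, XAF1, IFI44L and IFIH1 averaged 0.048, 0.151, 0.156 and 0.25 CPM in MC and passed the low-count filter through other groups. They could hardly be called lower against MC, and they count in the 18 and in the median. IFI6 averaged 9.30 CPM in 1/7MC and 0.557 CPM in MC, and OAS1Y 22.9 CPM in 1/7MC and 1.29 CPM in MC. Of the 24, 12 fell and 0 rose in 1/7MC+Pyr+FGF against 1/7MC+Pyr (median -1.11), beside 2.12% of all genes lower and 0.639% higher. Against 1/7MC, 15 fell and 0 rose in 1/7MC+Pyr+FGF (median -0.83), beside 15.7% of all genes lower and 11.9% higher. In both, edgeR at an unadjusted p under 0.05 and DESeq2 had 0 higher as well. OAS1Y, of the antiviral oligoadenylate synthetases, averaged 4.59 CPM in 1/7MC+Pyr+FGF and 18.7 CPM in 1/7MC+Pyr, and it fell by -2.02 ± 0.24.

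Of 12 genes listed as induced by interferon gamma, 9 had an entry and 7 were tested. In 1/7MC against MC, 1 rose and 3 fell, with the same counts against MC replicate 1 alone. IRF1, a transcription factor, fell by -0.85 ± 0.15, TAP1, the peptide transporter of antigen presentation, by -1.15 ± 0.11 and CIITA, the activator of class II antigen presentation genes, by -1.16 ± 0.23. GBP5 rose by 1.84 ± 0.30, and PSMB8, PSMB9 and NLRC5 were not called. These calls stand beside 23.7% of all genes higher and 21.3% lower. In 1/7MC+Pyr+FGF against 1/7MC, IRF1 rose by 0.86 ± 0.15 and TAP1 by 0.76 ± 0.11, while GBP5 fell by -1.96 ± 0.30. TAP1 and IRF1 also rose in 1/7MC+Pyr against 1/7MC, by 1.09 ± 0.11 and 0.93 ± 0.15.

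Cell type markers were summed by list in each library. All 11 pluripotency markers were detected, with summed levels of 3346 to 3774 CPM in 1/7MC+Pyr+FGF, 4187 to 4428 CPM in 1/7MC+Pyr, 2504 to 2799 CPM in 1/7MC and 4472 to 4565 CPM in MC. In 1/7MC against MC, 8 of the 11 fell and 0 rose (median -0.69), beside 21.3% of all genes lower and 23.7% higher. NANOG was not called there, with a log2 difference of 0.07. The 20 fibroblast and feeder markers, all detected, summed to 16200 to 23080 CPM in 1/7MC+Pyr+FGF, 24200 to 36140 CPM in 1/7MC+Pyr, 20590 to 28040 CPM in 1/7MC and 6784 to 6984 CPM in MC. All 20 rose in 1/7MC against MC (median 2.02), beside 23.7% of all genes higher. FAP, at 0.0910 CPM in MC, passed the low-count filter through other groups. Against 1/7MC, 1 of them rose and 9 fell in 1/7MC+Pyr+FGF, beside 11.9% of all genes higher and 15.7% lower. For 1/7MC+Pyr against 1/7MC, 4 rose and 7 fell (median -0.12), beside 8.08% of all genes higher and 10.1% lower. Without any 1 of the libraries of these groups 2 to 7 rose and 4 to 6 fell. In 1/7MC+Pyr+FGF against 1/7MC+Pyr, 4 of them fell, beside 2.12% of all genes lower. That count was 1 or 2 without any 1 of the 1/7MC+Pyr+FGF libraries, 1/7MC+Pyr replicate 1 or 3, 1/7MC replicate 1, or MC replicate 2 or 3.

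The 10 blood markers summed to 11.7 to 12.2 CPM in 1/7MC+Pyr+FGF, 14.7 to 17.6 CPM in 1/7MC+Pyr, 15.2 to 19.0 CPM in 1/7MC and 8.40 to 8.99 CPM in MC, with TYROBP at 0 in 1/7MC. The 7 endothelial markers summed to 39.7 to 61.2, 30.4 to 34.1, 21.3 to 28.3 and 28.8 to 31.2 CPM in the same order of groups. They did not move together: in 1/7MC against MC, 2 rose and 4 fell, beside 23.7% of all genes higher and 21.3% lower. EMCN, 1 of the 2 that rose, averaged 8.09 CPM in 1/7MC and 0.165 CPM in MC. EMCN and the other, PECAM1, at 0.0447 CPM in MC, passed the low-count filter through groups other than MC. Of 8 neural markers, 7 had an entry and summed to 721 to 1101, 819 to 1062, 1093 to 1324 and 835 to 1014 CPM, in that order of groups. NES, with group means of 636 to 775 CPM, made up most of each sum. Of the 7, 3 rose and 2 fell in 1/7MC against MC, and 1 fell without some single libraries. In 1/7MC+Pyr+FGF against 1/7MC, 4 fell and 0 rose (median -1.82), beside 15.7% of all genes lower and 11.9% higher. In bulk RNA, fewer cells of a type and less RNA per cell cannot be told apart, and the part of these cells in the receptor and kinase levels was not tested.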

How the data were processed

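Poly-A libraries of 12 samples, 3 in each of 4 groups, were analysed from tables the authors deposited. The build was bosTau9 and the tools included featureCounts, Subread 2.0, HISAT2 2.1.0 and fastp 0.19.7, per the submitters' processing notes; the order and settings of these tools and the annotation are not given in the sources used here. The counts the authors deposited are whole numbers per gene, not normalised. The second deposited table, taken as TPM at first, holds a signal equal to the count over gene length times a constant of 4.9433, and its columns sum to 66798 to 118022 with no correction for depth. Its columns were scaled here to equal sums, and it was used to compare genes with each other.

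Of 19285 entries, 400 shared an identifier with another and were left out, at most 1.40% of a library's counts. Listed genes said to have an entry are those with a kept entry, so a gene without one may be absent or left out. Entrez identifiers gave 18803 of the 18885 kept entries a symbol. Trimmed-mean (TMM) factors ran from 0.968 to 1.04, and filterByExpr left 13920 genes, or 14361 when MC was represented by replicate 1. Genes were tested with edgeR 4.0.16 (quasi-likelihood F test, group as the single term, Benjamini-Hochberg adjustment over all genes tested), and every adjusted p is from that test unless another tool is named. The SE is the log2 fold change over the square root of F. IFNAR2 ratios have exact intervals of counting error. The fit was tested on simulated data.

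Members, lists and tests were chosen with earlier results of these data known. The genes named are the 7 members; from each list and comparison, up to 4 called genes with the largest fold; STAT2, STAT3, IRF9, IL10RB, IL6ST, SOCS1 and SOCS3 whatever their values (another gene of this kind is not reported here); the 3 closest profiles of each member; and its neighbours. Alternatives were DESeq2 1.42.0, 2 other scalings, 2 other filters, 2 groups only, the replicate number as a block, the length-scaled signal (limma 3.58.1 on log2 of the value plus 0.1), MC replicate 1 alone, and each library left out in turn. Same-numbered replicates were not paired in the main fit.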

Additional observations from a re-analysis of the deposited data

How the results depend on the processing

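No fold change of the 7 genes changed sign past a threshold under any alternative run: 811 recomputed values kept their call, 54 lost it and 10 gained it. The number of the 7 genes called moved as follows. For 1/7MC against MC (5 called) it was 3 with a filter of CPM of at least 1 in 3 samples, where IFNAR2 was not tested, and 4 to 5 without each replicate in turn. For 1/7MC+Pyr against 1/7MC (2 called) it was 1 with DESeq2's size factors, 1 with no low-count filter, 1 with 2 groups only, 1 with the replicate block, 0 with MC replicate 1 alone, where 2 were lower at an unadjusted p under 0.05, 0 with the length-scaled signal, and 0 to 2 without each replicate in turn. For 1/7MC+Pyr+FGF against 1/7MC+Pyr (2 called) it was 1 with the stricter filter, where IFNAR2 was not tested, 1 with the replicate block and 1 to 2 without each replicate. The 5 called in 1/7MC+Pyr+FGF against 1/7MC were 4 to 5 under every setting. The 5 called in 1/7MC+Pyr against MC became 2 with MC replicate 1 alone and 3 to 5 without each replicate. The 2 called in 1/7MC+Pyr+FGF against MC became 1 with MC replicate 1 alone. Where no construction is named, the cause was not tested.

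Deviations of same-numbered replicates from their group means had correlations of -0.316 to 0.333. With 3 libraries a group, these cannot settle whether the numbers pair samples, which the labels do not state. In 1/7MC+Pyr+FGF against 1/7MC each sample correlated best with its own number, at 0.229, 0.333 and 0.021, a hint from the data. IFNAR2 rests on 0 to 23 counts a library, and that depth limits its values.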

Other observations

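The pathway lists had these calls in the comparisons not given above. Of all genes, 8.08% were called higher and 10.1% lower in 1/7MC+Pyr against 1/7MC. Against MC the shares were 15.2% higher and 13.2% lower in 1/7MC+Pyr, and 17.1% higher and 15.4% lower in 1/7MC+Pyr+FGF. These shares stand beside every count of this section. Of the 24 interferon-induced genes tested, 2 rose and 2 fell in 1/7MC+Pyr against 1/7MC: MX2 rose by 1.40 ± 0.33 and MX1 by 0.75 ± 0.19, while IFI35 fell by -0.76 ± 0.24 and IFIT5 by -0.44 ± 0.13 on the log2 scale (edgeR, SE). All 4 of these calls were lost without 1/7MC replicate 1, and some without any 1 of the 1/7MC+Pyr libraries, 1/7MC replicate 2 or 3, or MC replicate 2 or 3; the MX2 call was lost without 1/7MC+Pyr replicate 2. Genes low in MC, such as IFI44 and XAF1, passed the low-count filter through other groups and could hardly be called lower against MC. Against MC, 18 rose and 1 fell in 1/7MC+Pyr, and 9 rose and 2 fell in 1/7MC+Pyr+FGF. With MC replicate 1 alone these counts were 12 and 0, and 6 and 1, of 27 genes tested. The 1 lower call in 1/7MC+Pyr was lost without its replicate 2 or 3, and 6 or 7 rose and 1 fell in 1/7MC+Pyr+FGF without its replicate 3 or MC replicate 2 or 3.

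Of the 18 inhibitors, 4 rose and 2 fell in 1/7MC+Pyr against MC, and 3 rose and 2 fell in 1/7MC+Pyr+FGF against MC. Without MC replicate 1, 8 and 9 rose, and with MC replicate 1 alone 2 and 1 rose and 0 fell in both. Without its replicate 1 or MC replicate 2 or 3, 1 fell in 1/7MC+Pyr+FGF, and 2 rose without MC replicate 3. The phosphatase PTPN6 fell by -2.66 ± 0.51 and -2.77 ± 0.50 in these comparisons, but its log2 difference was -0.89 and -1.04 with MC replicate 1 alone (adjusted p = 0.239 and 0.132). Of the 20 other receptor genes tested, 4 rose and 2 fell in 1/7MC+Pyr and 3 rose and 4 fell in 1/7MC+Pyr+FGF, each against MC; with MC replicate 1 alone the counts were 1 and 0, and 0 and 1, of 21 tested. Counts changed without single libraries: in 1/7MC+Pyr, 2 rose without its replicate 3 or any 1 of the MC libraries, and 1 fell without its replicate 2 or MC replicate 2 or 3; in 1/7MC+Pyr+FGF, 1 or 2 fell without its replicate 1 or 3 or MC replicate 2 or 3. IL13RA1 fell by -1.63 ± 0.33 in 1/7MC+Pyr+FGF against MC and differed by -0.32 with MC replicate 1 alone (adjusted p = 0.292).

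Of the 7 interferon-gamma-induced genes tested, 3 rose and 0 fell in 1/7MC+Pyr against 1/7MC, where 1 fell without 1/7MC+Pyr replicate 2. CIITA, 1 of the 3, rose by 0.77 ± 0.23, a call lost without 7 of the 12 libraries in turn (adjusted p up to 0.162). GBP5 fell by -1.25 ± 0.30 in 1/7MC+Pyr+FGF against 1/7MC+Pyr, a call lost without 10 of the 12 libraries in turn (adjusted p up to 0.123). Against MC, 1 of the 7 rose and 0 fell in 1/7MC+Pyr, and 0 rose and 2 fell in 1/7MC+Pyr+FGF; by DESeq2 the counts were the same, and at an unadjusted p under 0.05 2 rose and 0 fell, and 0 rose and 2 fell. The first count was 0 without 1/7MC+Pyr replicate 2 or MC replicate 2 and 2 without MC replicate 3, and the second was 0 without 1/7MC+Pyr+FGF replicate 1 or 3 and 1 without MC replicate 3.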
